A study of Nicotiana tabacum with 9 samples.

Results

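The 5 genes described here are transcribed in tobacco pollen. They are the pollen genes *ntp101* (GeneID:107773574, also named ntp302 in the reference gene table), *ntp201* (GeneID:107815818) and *ntp805* (GeneID:107829710), the profilin gene *PRO1* (GeneID:107793296) and the pectin methylesterase gene *PPME1* (GeneID:107768376). They were taken by these identifiers, which are 5 of the 76785 gene identifiers in the expression tables, and not by a threshold on their values. Earlier results of these data were known when the 5 genes were chosen. RNA was sequenced from pollen of *Nicotiana tabacum* that the labels place at the bicellular stage, when a grain holds a vegetative and a generative cell. The 9 libraries come from 3 genotypes, with 3 independent biological replicates each: wild type (WT) of the cultivar Petite Havana SR1, plants carrying an RNA interference construct against *ATG2*, and plants carrying one against *ATG5*. All plants grew in a glasshouse with a day of 12 h, and the labels name no treatment. The promoter that drives the constructs and the number of lines behind each genotype are not given in the sources used here.

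ATG2 and ATG5 are core proteins of autophagy, the pathway that encloses cytoplasm in a membrane and delivers it to the vacuole for breakdown. ATG2 supplies lipid to the growing membrane, and ATG5 is part of the complex that joins ATG8 to it. A pollen grain stores transcripts before it germinates and then extends a tube by tip growth. The tube wall at the tip is rich in pectin, which pectin methylesterases de-esterify, and the actin cytoskeleton, whose monomers profilin binds, carries vesicles to the tip. The ntp genes belong to a family of proteins of pollen that resemble ascorbate oxidase.

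Levels are given as FPKM, a measure of sequenced fragments set per length of transcript and per total of mapped reads, so that levels can be compared between genes. In WT pollen, *ntp101* was the most abundant of all genes in each of the 3 libraries. The order *ntp101*, *ntp805*, *ntp201*, *PPME1*, *PRO1* was found in 6 of 6 WT and *ATG2*-silenced libraries. In the 3 *ATG5*-silenced libraries, *ntp201* stood first, followed by *ntp101*, *ntp805*, *PPME1* and *PRO1*. Across the 3 WT libraries the ranges of neighbours in this order did not overlap, except those of *ntp805* and *ntp201*, which overlapped between 5815 and 6048 FPKM. The 5 genes together held 2.59% to 2.80% of the summed FPKM of a WT library, 2.64% to 2.94% of an *ATG2*-silenced library and 4.38% to 4.88% of an *ATG5*-silenced library.

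**Figure D1:**
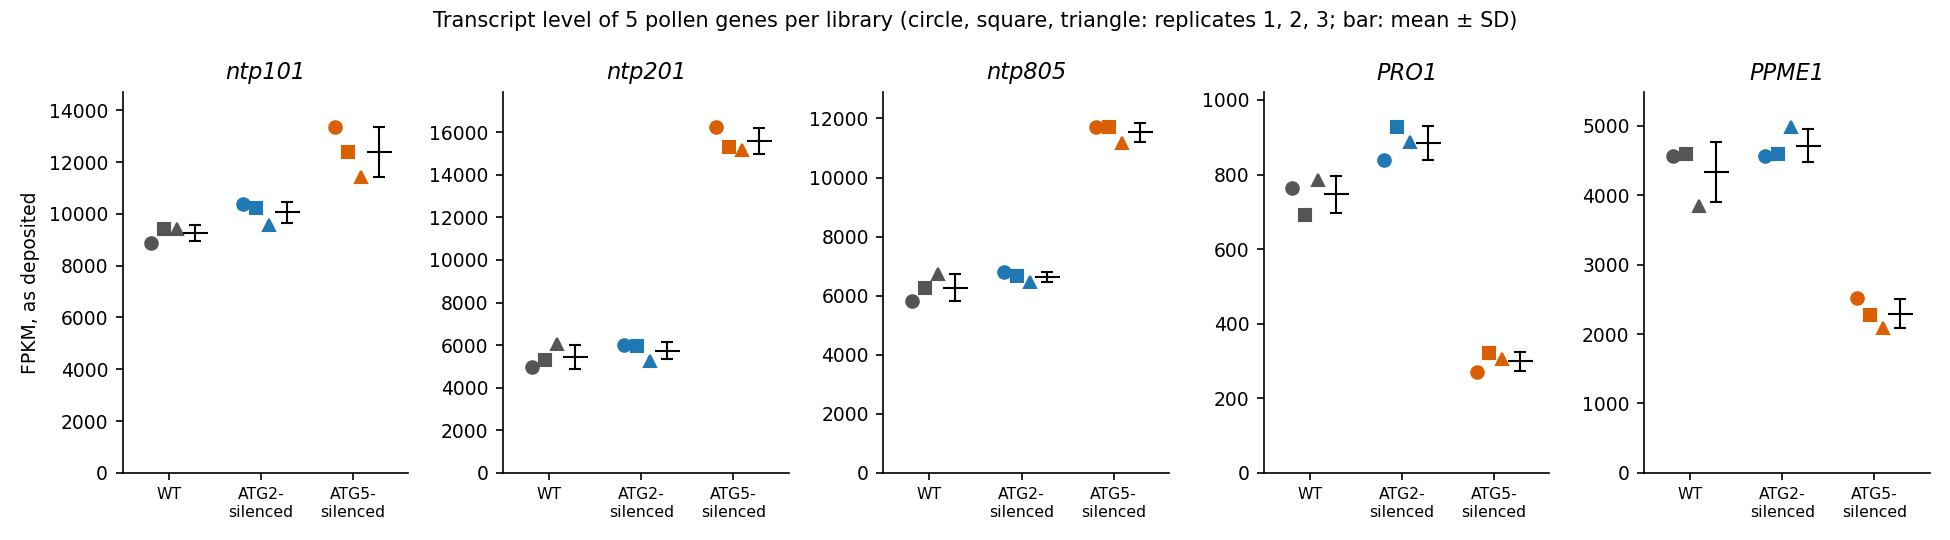
FPKM as deposited (vertical axes, each from 0) of the 5 genes in the 9 libraries, by genotype; circles, squares and triangles are replicates 1, 2 and 3, and the bars give the mean ± SD over 3 libraries. The 3 *ATG5*-silenced libraries lie above all WT libraries for *ntp101*, *ntp201* and *ntp805* and below them for *PRO1* and *PPME1*, while WT and *ATG2*-silenced libraries lie close to each other or overlap.

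The silenced genes were checked first. The level of *ATG2* was 1.04 ± 0.14 FPKM in WT, and 0.233 ± 0.058 FPKM remained in its silenced pollen (SD, n = 3; limma log2 change -1.11, adjusted p = 0.0113). For *ATG5*, WT pollen had 1.38 ± 0.30 FPKM and its silenced pollen 0.17 ± 0.066 FPKM (SD, n = 3; limma log2 change -1.38, adjusted p = 1.9e-04). Both went the way of their labels. *NPG1*, a polygalacturonase gene of pollen, was at 1241 to 2028 FPKM in every library. Summed over 15 genes of green tissue, the level was 2.8 to 6.17 FPKM in WT, 1.1 to 2 FPKM in *ATG2*-silenced and 0.22 to 1.11 FPKM in *ATG5*-silenced pollen, and 2, 4 and 9 of the 15 were at 0 in all libraries of the genotype. The pistil gene *STIG1* did not exceed 0.61 FPKM in any library. The part of these marker levels in the results was not tested. The deposited tables carry 2 decimals in all *ATG5*-silenced libraries and in WT replicates 1 and 2, and 1 decimal in the *ATG2*-silenced libraries and WT replicate 3, so values within tables of equal decimals are also given.

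In *ATG5*-silenced pollen all 5 genes differed from WT, with the 3 ntp genes upregulated and *PRO1* and *PPME1* downregulated (limma on scaled log2 FPKM, Benjamini-Hochberg adjusted p under 0.05). Of the 27836 tested genes, 52.0% passed in this comparison, 27.1% upregulated and 24.9% downregulated, so passing the test by itself does not set the 5 genes apart. In *ATG2*-silenced pollen 0 of the 5 passed, against 1.08% of all tested genes, and 0 of the 5 had an unadjusted p under 0.05. In bulk RNA, a change in the amount of a transcript per grain and a change in the share of grains that hold it cannot be told apart. For a single value, 3 libraries against 3 give an exact two-sided permutation p of no less than 0.10.

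*ntp201* showed the largest log2 change of the 5, except under quantile normalization, where *PRO1* changed more (-1.08 against 0.92). Its levels were 4959, 5282 and 6048 FPKM in WT replicates 1 to 3, 6000.3, 5935 and 5273 FPKM in *ATG2*-silenced replicates and 16265, 15306 and 15179.8 FPKM in *ATG5*-silenced replicates. WT and *ATG2*-silenced libraries overlapped, and each *ATG5*-silenced library was above both. FPKM did not overlap with WT in *ATG5*-silenced pollen for all 5 genes, nor for 63.7% of all tested genes, and did not overlap between the silenced genotypes for all 5 and for 70.4%. On the deposited values, the *ATG5*-silenced mean of 15584 ± 593 FPKM was 2.87 times the WT mean of 5429.6 ± 559.6 FPKM (SD, n = 3 each). After scaling of the libraries by the median of ratios, the log2 change was 1.89 (95% interval 1.70 to 2.08, limma adjusted p = 5.78e-07), or 3.71-fold. It moved from between 9th and 20th place in WT libraries to the top of all 3 *ATG5*-silenced libraries. Relative to *ATG2*-silenced pollen the log2 change was 1.94 (limma adjusted p = 4.86e-07). That comparison could not be made within tables of equal decimals, since the silenced genotypes share none. In that comparison 54.3% of all tested genes passed, 26.8% upregulated and 27.5% downregulated. The 5 genes passed in it with the same signs as against WT, and both comparisons share the *ATG5*-silenced libraries.

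*ntp805* was the most evenly expressed of the 3 ntp genes within the silenced genotypes. It stood at 5815, 6253 and 6741 FPKM in WT, at 6805, 6663 and 6457 FPKM in *ATG2*-silenced and at 11725, 11706 and 11167 FPKM in *ATG5*-silenced pollen. The *ATG5*-silenced libraries were again above all others, and those of WT and *ATG2*-silenced pollen overlapped. The ratio of mean FPKM to WT was 1.84, and the scaled log2 change was 1.25 (95% interval 1.11 to 1.39, limma adjusted p = 1.13e-06), 2.38-fold. Together with *ntp201* it was 1 of 2 among the 5 genes to exceed a 2-fold rise, as did 14.6% of all tested genes, while 0 of the 5 passed with a level below 0.5 of WT, against 7.75%.

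*ntp101* rose least of the 3 on either scale. Its levels were 8892, 9425 and 9438 FPKM in WT, 10369, 10225 and 9578 FPKM in *ATG2*-silenced and 13376, 12388 and 11416 FPKM in *ATG5*-silenced pollen. The 3 genotypes did not overlap in deposited FPKM, with WT lowest and *ATG5*-silenced pollen highest. Of all tested genes, 26.9% likewise showed no overlap of FPKM between WT and *ATG2*-silenced pollen. Once the libraries were scaled, WT and *ATG2*-silenced pollen overlapped, at a log2 change of -0.01 (95% interval -0.20 to 0.17, limma adjusted p = 0.969). Against WT, the log2 change in *ATG5*-silenced pollen was 0.79 (95% interval 0.60 to 0.97, limma adjusted p = 6.38e-05), 1.73-fold, and the ratio of mean FPKM was 1.34. Quantile normalization, which gives every library the same set of values, turned its direction, to -0.25 (limma adjusted p = 0.00751), while *ntp201* and *ntp805* stayed higher at 0.92 and 0.23 under it.

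Summed, the 3 ntp genes took 2.19 ± 0.14% of the FPKM of a WT library, 2.27 ± 0.17% in *ATG2*-silenced and 4.35 ± 0.23% in *ATG5*-silenced pollen (SD, n = 3). The rise in *ATG5*-silenced pollen was 2.16 percentage points, while the share of the 100 most abundant genes of a library rose by 6.76 points, from 35.4 ± 0.48% to 42.2 ± 0.63%. Because FPKM divides by the total of a library, a larger share for abundant genes lowers the FPKM of all others, and the scaling applied here is meant to adjust for that. The factors were 0.751 to 0.791 in *ATG5*-silenced libraries, 0.978 to 1.04 in WT and 1.06 to 1.11 in *ATG2*-silenced libraries. The plot of scalings gives the log2 changes with and without this step.

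*PRO1*, whose product binds actin monomers, went the other way. It stood at 764, 691 and 787 FPKM in WT, at 839, 929 and 887 FPKM in *ATG2*-silenced and at 271, 320.4 and 305 FPKM in *ATG5*-silenced pollen. The 3 genotypes did not overlap, with *ATG2*-silenced pollen highest. In *ATG5*-silenced pollen the mean was 299 ± 25.4 FPKM against 747 ± 50.1 FPKM in WT (SD, n = 3), a ratio of 0.400, and the scaled log2 change was -0.96 (95% interval -1.11 to -0.81, limma adjusted p = 6.09e-06). Its place in the order of all genes moved from between 220 and 241 in WT to between 422 and 484. In *ATG2*-silenced pollen the log2 change was 0.11 (95% interval -0.04 to 0.26, limma adjusted p = 0.424), with all 3 libraries above WT also after scaling (exact permutation p = 0.10). Of all tested genes, 25.9% had no overlap of scaled values between these genotypes. Under the other 4 scalings the fall of *PRO1* in *ATG5*-silenced pollen was past the 2-fold mark, at log2 changes of -1.32 without scaling, -1.25 at equal sums, -1.13 at equal sums without the 100 most abundant genes and -1.08 under quantile normalization. The rise of *ntp805* was short of that mark without scaling (0.88), at equal sums (0.95) and under quantile normalization (0.23), and that of *ntp201* under quantile normalization alone (0.92).

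*PPME1* encodes a pectin methylesterase of pollen, an enzyme that acts on the tube wall. It stood at 4568, 4602 and 3839.7 FPKM in WT, at 4559.7, 4602.4 and 4990.3 FPKM in *ATG2*-silenced and at 2517, 2279.5 and 2088 FPKM in *ATG5*-silenced pollen. WT replicate 3 was the lowest of the 6 libraries outside *ATG5*-silenced pollen, and all of these were above the *ATG5*-silenced libraries. The mean fell to 2295 ± 215 FPKM from 4337 ± 431 FPKM in WT (SD, n = 3), a ratio of 0.529. Its scaled log2 change was -0.55 (95% interval -0.81 to -0.29, limma adjusted p = 0.0032), or 0.683 of the WT level, with the widest interval of the 5. It was the smallest of the 5 changes on this scaling but larger than that of *ntp101* under the other 4, at -0.92 against 0.42 without scaling. In *ATG2*-silenced pollen it was -0.01 (95% interval -0.26 to 0.25, limma adjusted p = 0.992).

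**Figure D2:**
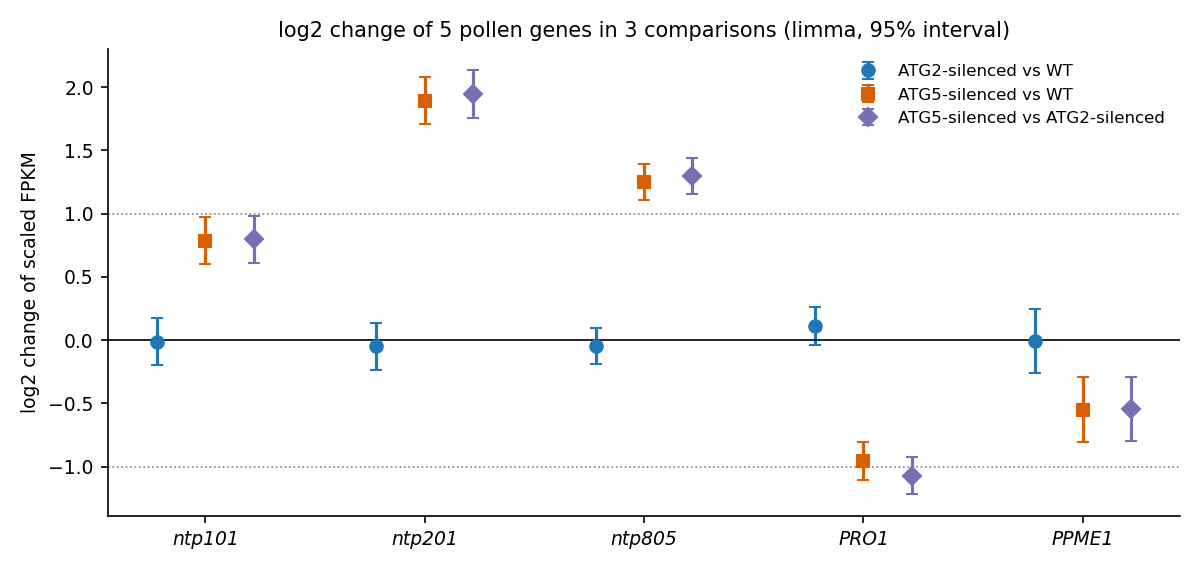
log2 change of scaled FPKM (vertical axis) of the 5 genes in 3 comparisons, as points with 95% intervals from limma; dotted lines mark 2-fold changes. The *ATG2*-silenced vs WT intervals all include 0, and those of *ATG5*-silenced pollen against either genotype lie above 0 for the ntp genes and below 0 for *PRO1* and *PPME1*.

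Within tables of equal decimals, the log2 changes in *ATG5*-silenced pollen against WT replicates 1 and 2 were 0.77 for *ntp101*, 1.94 for *ntp201*, 1.27 for *ntp805*, -0.95 for *PRO1* and -0.67 for *PPME1*, and all 5 passed (limma adjusted p up to 8.7e-04). Those in *ATG2*-silenced pollen against WT replicate 3 alone were 0.02, -0.15, -0.09, 0.10 and 0.23 in the same order. They are given as values without a test, since 1 WT library has no spread of its own. For *ntp201* and *ntp805* in *ATG2*-silenced pollen, the intervals over all libraries were -0.24 to 0.14 and -0.19 to 0.10. A change of 2-fold in either direction lies outside the *ATG2* interval of each of the 5 genes, whereas smaller changes within these intervals were not detectable with 3 libraries.

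Ratios between 2 genes of the same library do not depend on the factor by which a library is divided, though quantile normalization changes them, and they were taken from FPKM as deposited. For all 10 pairs of the 5 genes, WT and *ATG2*-silenced libraries overlapped, and the means differed by no more than 0.16 on the log2 scale. In *ATG5*-silenced pollen the 3 libraries lay outside the WT range for 10 of 10 pairs (exact permutation p = 0.10 each, 0.15 adjusted over 30 tests). Among all 49770 pairs of the 316 tested genes with a mean of at least 500 FPKM, 83.0% were separated in this way in *ATG5*-silenced pollen and 26.1% in *ATG2*-silenced pollen, so separation by itself does not set the 10 pairs apart. The permutation p of 0.10 is the smallest that 3 libraries against 3 can give, and it does not reach 0.05. The separation holds also among the 3 ntp genes. The log2 ratio of *ntp101* to *ntp201* was 0.77 ± 0.11 in WT, 0.81 ± 0.043 in *ATG2*-silenced and -0.33 ± 0.069 in *ATG5*-silenced pollen (SD, n = 3), which is the change of order noted above. That of *ntp201* to *ntp805* went from -0.21 ± 0.047 in WT to 0.43 ± 0.043, and that of *ntp101* to *ntp805* from 0.56 ± 0.068 to 0.10 ± 0.081. Reads that match several ntp genes can be split between them by the quantification, which was not tested here. The pair that moved furthest was *ntp201* and *PRO1*, whose log2 ratio was 2.86 ± 0.14 in WT, 2.70 ± 0.13 in *ATG2*-silenced and 5.71 ± 0.18 in *ATG5*-silenced pollen. The pair of downregulated genes moved least, from -2.53 ± 0.23 for *PRO1* to *PPME1* in WT to -2.94 ± 0.24, with the nearest libraries at -2.74 and -2.78.

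**Figure D3:**
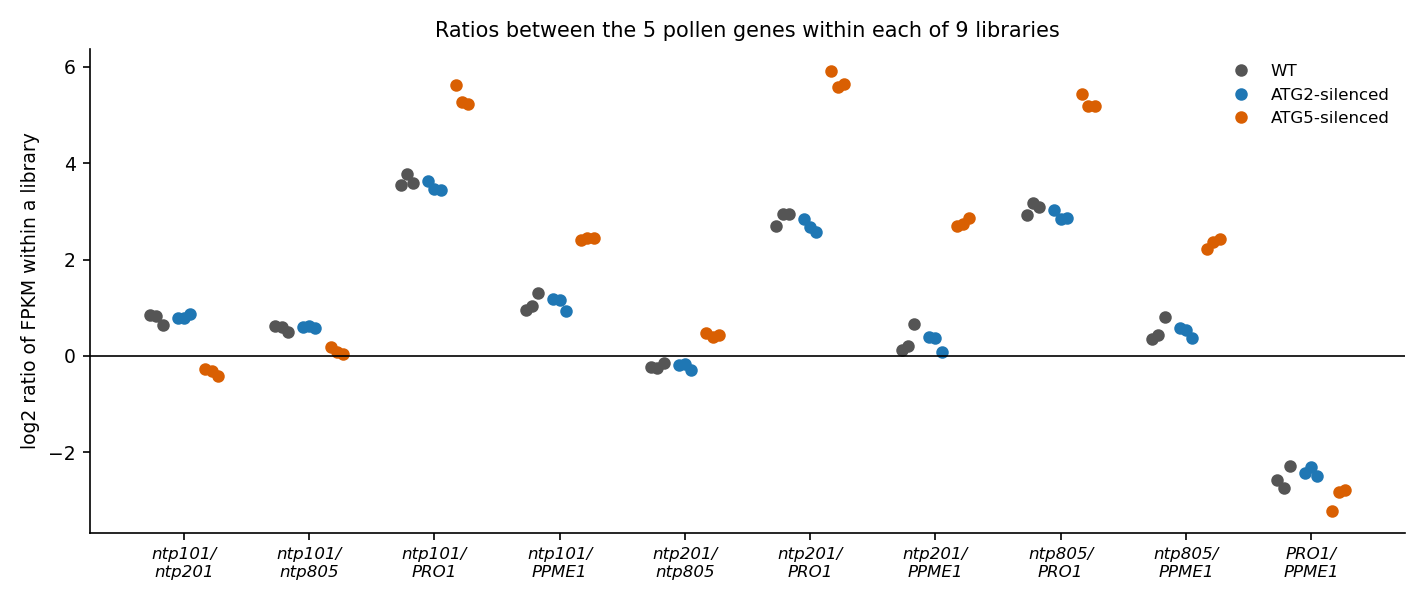
log2 ratio of FPKM (vertical axis) for the 10 pairs of the 5 genes, with 1 point per library and colours for the 3 genotypes. WT and *ATG2*-silenced points overlap in every pair, and the *ATG5*-silenced points lie apart, most widely for *ntp201*/*PRO1* (5.71 against 2.86) and least for *PRO1*/*PPME1* (-2.94 against -2.53).

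The changes of *ntp101*, *ntp201*, *ntp805* and *PPME1* were within the range of other abundant genes. Over the 177 genes with a mean of at least 1000 FPKM, 42.4% were upregulated and 36.7% downregulated in *ATG5*-silenced pollen, with log2 changes from -10.85 to 4.98 and a median of 0.07. In this set, 18 genes had a higher log2 change than *ntp201*, 34 a higher one than *ntp805* and 47 than *ntp101*, and 37 had a lower one than *PPME1*. *PRO1* is below this level, and 9.46% of all tested genes had a lower log2 change. In *ATG2*-silenced pollen 0 of the 177 passed (limma), against 1.08% of all tested genes. An unadjusted p under 0.05 was found for 50 of the 177. The share of all tested genes at that mark was not taken, so this count cannot be judged against it.

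**Figure D4:**
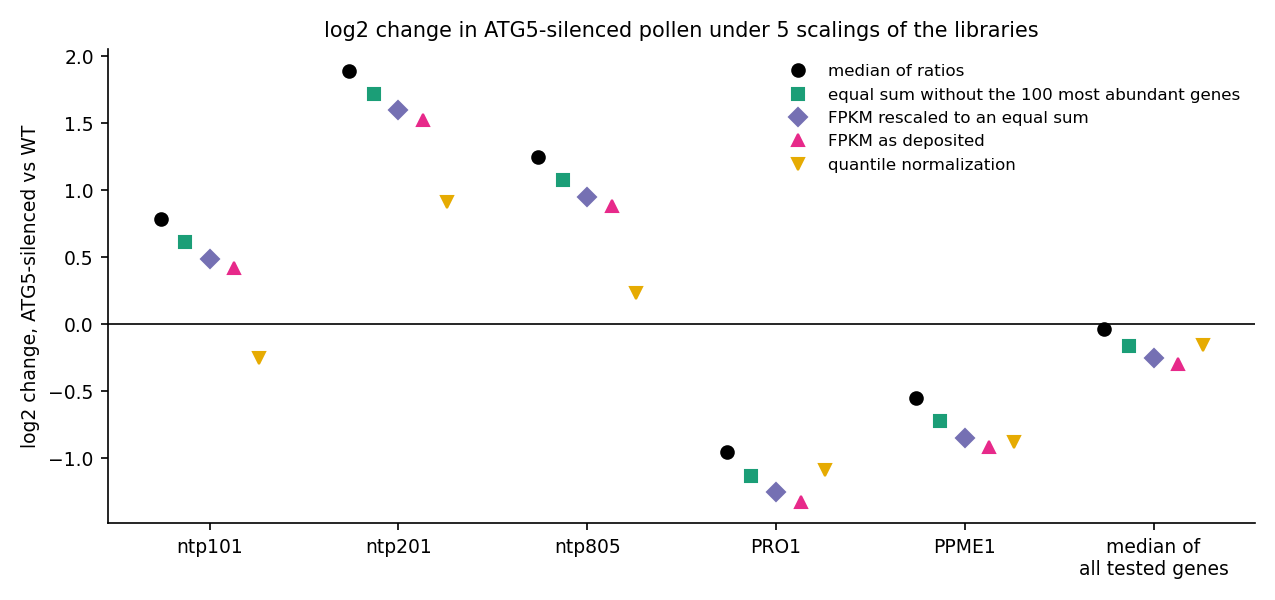
log2 change in *ATG5*-silenced vs WT pollen (vertical axis) for the 5 genes and for the median of all tested genes, under 5 ways of scaling the libraries (symbols). With no scaling the values were 0.42 for *ntp101*, 1.53 for *ntp201*, 0.88 for *ntp805*, -1.32 for *PRO1* and -0.92 for *PPME1*, with the median of all genes at -0.30, and quantile normalization alone put *ntp101* below 0.

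Other genes of the same functions were taken from lists matched by name. Of the 76785 identifiers 1081 carried a name, so genes of these functions without a name are not in the lists. Of 8 profilin and actin genes, 7 were tested, *PRO1* and 6 others. Of the 6 others, 4 were downregulated and 1 upregulated in *ATG5*-silenced pollen (limma), against 24.9% and 27.1% of all tested genes. The median log2 change of the 7 was that of *PRO1* itself, -0.96, against -0.03 over all tested genes. *PRO2*, a further profilin gene (GeneID:107782638), had 1160.2 ± 60.1 FPKM in WT and fell to 437 ± 25.1 FPKM (SD, n = 3), with a log2 change of -1.04 (limma adjusted p = 3.61e-06). *PRO3*, the third profilin gene of the list, fell from 879 ± 49 to 541 ± 25.7 FPKM, at a log2 change of -0.33 (limma adjusted p = 0.00166). All 3 named profilin genes thus had lower transcript levels in *ATG5*-silenced pollen, under all 5 scalings. Reads that match several profilin genes can be split between them by the quantification, which was not tested here.

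The actin genes did not move as 1 group. *Tob103* fell from 149 ± 2.5 to 51.1 ± 1.2 FPKM (SD, n = 3), at a log2 change of -1.17 (limma adjusted p = 2.43e-06), and *Tob104*, at 1.64 FPKM in WT, had a log2 change of -1.12 (adjusted p = 9.8e-04). *Tob93* had 375 ± 29.4 FPKM in WT, 381 ± 29.2 FPKM in *ATG5*-silenced pollen, and its log2 change of 0.39 after scaling (limma adjusted p = 0.00395) was 0.02 on the values as deposited (adjusted p = 0.798). The LIM-domain gene *PLIM-2* had a log2 change of -0.24 (limma adjusted p = 0.0675), which passed under all 4 other scalings, and *Tob66* was listed at 0 in all libraries. In *ATG2*-silenced pollen 0 of the 7 passed (limma), against 1.08% of all tested genes. An unadjusted p under 0.05 was found for 2 of the 7, a count with no share over all tested genes to set it against.

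On the pectin side, *NPG1* was the 1 tested gene beside *PPME1* in the list matched by name. It had 1745 ± 64 FPKM in WT against 1260.1 ± 19.6 FPKM with *ATG5* silenced (SD, n = 3). Its log2 change of -0.10 did not pass (limma adjusted p = 0.249), whereas it was -0.47 on the values as deposited (adjusted p = 1.97e-04). *PGIP1* was listed at 0 in every library, and *PGIP2* was below the filter on low values. Of 8 pollen genes, 7 were tested, the 5 described here and 2 others, *NPG1* and *SUT3*. Of the 2 others, 0 were upregulated and 1 was downregulated in *ATG5*-silenced pollen, against 27.1% and 24.9% of all tested genes. The median log2 change of the 7 was that of *NPG1*, -0.10, and *MST1* was listed at 0. The sucrose transporter gene *SUT3* fell from 185 ± 6.7 to 110.2 ± 7.6 FPKM (SD, n = 3), at a log2 change of -0.38 (limma adjusted p = 0.00529). The list related to ascorbate oxidase held no tested gene beyond the 3 ntp genes. In *ATG2*-silenced pollen 0 genes of the pectin and pollen lists passed (limma), against 1.08% of all tested genes. At an unadjusted p under 0.05 there were 0 and 1, again with no share over all tested genes.

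**Figure D5:**
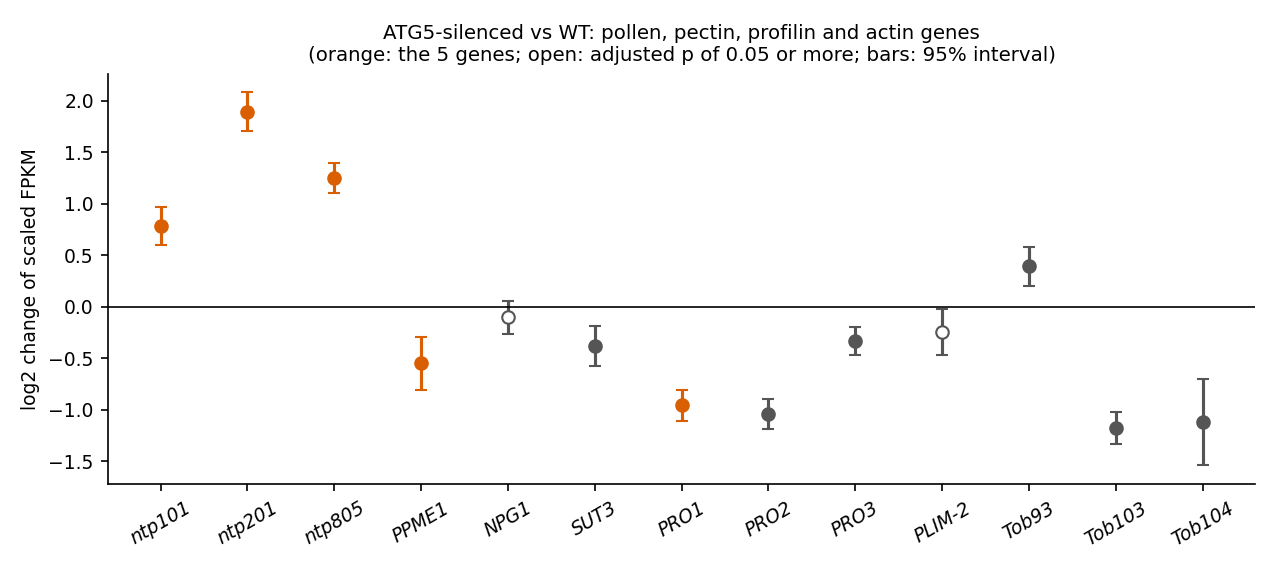
log2 change of scaled FPKM in *ATG5*-silenced vs WT pollen (vertical axis) for 13 tested pollen, pectin, profilin and actin genes, with 95% intervals from limma; the 5 genes are orange, and open points did not pass at an adjusted p of 0.05. *PRO1* (-0.96) lies beside *PRO2* (-1.04) and *Tob103* (-1.17), and the ntp genes lie above all others shown.

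Patterns over the 9 libraries were compared between genes as centred scaled log2 values, by the root-mean-square difference, among 6308 tested genes with a mean of at least 10 FPKM. The gene nearest to *PRO1* was *PRO2* (difference 0.064, Pearson r = 0.993 over 9 libraries), followed by GeneID:107793217 (0.065). Those nearest to the other 4 genes had no name in the tables. They were GeneID:107759279 for *ntp101* (0.045, 98 FPKM in WT against 127 FPKM in *ATG5*-silenced pollen), GeneID:107797036 for *ntp201* (0.066, 66.4 and 184 FPKM), GeneID:107781972 for *ntp805* (0.040, 12.8 and 23.7 FPKM) and GeneID:107822499 for *PPME1* (0.071, 12.9 and 6.75 FPKM). The next in line were GeneID:107808663 for *ntp101* (0.050), GeneID:107806727 for *ntp201* (0.067), a transcript without a gene identifier for *ntp805* (0.051) and GeneID:107768812 for *PPME1* (0.072). Among the 5 genes, *ntp101* and *ntp805* had the smallest difference (0.23, r = 0.987). *ntp201* and *ntp805* had the closest shape (r = 0.999), but with a difference of 0.31, since *ntp201* changed more. *PRO1* and *PPME1* were less alike in shape (r = 0.861), with a difference of 0.28. These correlations are descriptions, since the *ATG5*-silenced libraries stand apart from the other 6.

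Of the 10 nearest genes on either side in the order of the K326 reference assembly, 6 were tested. In *ATG5*-silenced pollen 4 of them passed, as did 52.0% of all tested genes, 27.1% upregulated and 24.9% downregulated. Of the 4, 3 had the opposite sign to their neighbour among the 5 genes. With both signs this common, an opposite sign does not set them apart. Beside *PRO1*, GeneID:107793285 rose from 2.91 to 12.8 FPKM in *ATG5*-silenced pollen, a log2 change of 2.34 (limma adjusted p = 2.38e-06). Beside *PPME1*, GeneID:107764290 rose from 536 to 632 FPKM, a log2 change of 0.60 (limma adjusted p = 1.1e-04). Beside *ntp805*, GeneID:107795851 fell from 6.09 to 2.76 FPKM, a log2 change of -0.71 (limma adjusted p = 0.0043). The alpha-tubulin gene *TUA5* beside *ntp101* went from 689 to 722 FPKM, and its log2 change of 0.43 (limma adjusted p = 0.00861) was 0.06 on the values as deposited (adjusted p = 0.599).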

How the data were processed

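RNA from pollen was sequenced in 9 libraries, 3 per genotype. The authors removed adaptor and low-quality reads (SOAPnuke), mapped the rest to the Ntab-TN90 genome and transcripts (HISAT2, Bowtie2) and deposited a table of FPKM for each library from RSEM, whose versions are not given in the sources used here. The study gives only a lower bound on read pairs that holds for all libraries. FPKM holds no depth, so the depth of each single library is unknown here. The DESeq2 test of the study, which needs counts, was not repeated. In each file 1 line named no gene and was left out. Summed FPKM was 904845 to 1030772, and 38341 to 41279 genes were above 0.

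FPKM was divided by a median-of-ratios factor from the 14192 genes above 1 FPKM in all 9 libraries, and log2(FPKM + 0.5) of the 27836 genes that reached 0.5 FPKM in 3 or more libraries was tested with limma 3.58.1 (statmod 1.5.0, R 4.3.3; trend and robust options, 1 fit over 3 genotypes, two-sided, Benjamini-Hochberg over all tested genes). Fold changes on this scale understate those of low genes. A gene passed at an adjusted p under 0.05. The script was tested on simulated data. Single values and ratios were compared by exact permutation tests. The share of separated gene pairs, from genes with a mean of at least 500 FPKM, was added after seeing the data. Figures used Python 3.11.15 and matplotlib 3.10.9.

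The 5 genes and the lists were chosen with earlier results of these data known. Named beside them are the silenced genes, up to 4 tested genes per list by smallest p, the remaining members of the short lists and the next genes in the reference order, both chosen after their values were seen, and for each of the 5 the most similar patterns. Lists were matched on the gene names of a RefSeq table (K326, ASM71507v2), in which 53952 of 76785 identifiers were found. A name was at hand for 1081 identifiers, so the lists do not cover all genes of a function. As this assembly is not the one of the files, no coordinate is given. Comparisons of homologs and of promoter motifs had been planned but were not run, as no sequence was used here. Alternatives were other scalings, pseudocounts of 0.1 and 1, filters, limma without trend and robust options, a replicate block, leaving out each library, and tables of equal decimals, the last chosen after seeing the data.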

Additional observations from a re-analysis of the deposited data

How the results depend on the processing

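The 5 changes in *ATG5*-silenced pollen passed under every alternative run, in the same direction except for *ntp101*, which was -0.25 against WT and -0.18 against *ATG2*-silenced pollen under quantile normalization. Quantile normalization gives the highest places of every library the same values, and *ntp101* held places 1 to 3 throughout. For *ATG5*-silenced vs *ATG2*-silenced pollen the alternatives did not include tables of equal decimals, as these genotypes share none. When each library was left out in turn, the log2 change against WT was 0.72 to 0.87 for *ntp101*, 1.84 to 1.94 for *ntp201*, 1.20 to 1.30 for *ntp805*, -1.01 to -0.89 for *PRO1* and -0.67 to -0.46 for *PPME1*. The median of all tested genes was -0.30 on FPKM as deposited, -0.25 at equal sums, -0.16 at equal sums without the 100 most abundant genes, -0.15 under quantile normalization and -0.03 with the median of ratios. The split of genes past the threshold into higher and lower moved with it, from 7536 and 6944 to 5188 and 10930, 5534 and 10144, 6221 and 8763, and 6271 and 8703 in the order as deposited, equal sums, without the most abundant genes, and quantile. *Tob93* no longer passed in the first 3 of these (0.02, 0.10 and 0.22), and *PLIM-2* and *NPG1* passed in all 4.

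In *ATG2*-silenced pollen none of the 5 genes passed under any alternative run, and the log2 changes turned sign with the scaling for all but *PRO1*, which stayed higher under every alternative (0.07 to 0.24, against 0.11). On FPKM as deposited, at equal sums and without the 100 most abundant genes they were 0.12, 0.067 and 0.072 for *ntp101*, 0.082, 0.028 and 0.033 for *ntp201*, 0.086, 0.032 and 0.037 for *ntp805*, and 0.13, 0.072 and 0.077 for *PPME1*. Under quantile normalization they were 0.0014 for *ntp201* and 0.054 for *PPME1*, and within tables of equal decimals 0.020 for *ntp101* and 0.23 for *PPME1*. Leaving out each library gave -0.055 to 0.034 for *ntp101*, -0.10 to 0.020 for *ntp201* and -0.12 to 0.048 for *PPME1*. The number of all tested genes past the threshold, 301, was 499 on FPKM as deposited, 49 within tables of equal decimals (1 WT library, assumed to vary like the others), and 57 to 700 when each library was left out, the highest without WT replicate 3. The cause was not tested.

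With the replicate number as a block, 203, 13937 and 14684 genes passed in *ATG2*-silenced vs WT, *ATG5*-silenced vs WT and *ATG5*-silenced vs *ATG2*-silenced pollen, against 301, 14480 and 15115 without it, and no call of the 5 genes changed. Libraries of the same number were correlated at -0.04 to 0.05 in their deviations from the genotype means, so the numbers do not pair them. The lncRNA GeneID:107762582 beside *ntp201*, near 0.5 FPKM and with an adjusted p of 0.795 for *ATG5*-silenced vs WT pollen, had a log2 change of -0.12 that ranged from -0.39 to 0.33 when libraries were left out. The planned comparisons of homologs and promoter motifs were not run. The depth of each single library is unknown beyond the lower bound of the study, and with 3 per genotype an exact test of a single gene cannot go below 0.10.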
